A study of Mus musculus with 13 samples.

Results

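The genes described here are 10 members of the cytosolic DNA sensing and nucleic-acid clearance machinery, Cgas, Sting1, Tbk1, Irf3, Mavs, Trex1, Samhd1, Rnaseh2a, Rnaseh2b and Rnaseh2c. They were chosen by symbol, matched to gene identifiers through the mouse GRCm39 annotation, out of 57010 genes in the files, and all 10 were among the 15034 genes with enough counts to be tested. Bulk RNA-Seq was performed on wild-type (WT) mouse embryonic fibroblasts (MEFs), which are primary cells grown from minced embryos after removal of the viscera, and no group carried a mutation or transgene. The 4 groups were control MEFs without etoposide, senescent MEFs (SnCs) made with 2 µM of the topoisomerase II poison etoposide for 24 h and then 5 days of culture, and such SnCs given Fucoidan-FV, the sulfated polysaccharide of the seaweed Fucus vesiculosus, at 100 µg/mL or 300 µg/mL for 12 h. Each group held samples numbered mouse 4, 5 and 6 in the labels (n = 3), and control mouse 5 was sequenced as libraries 5(1) and 5(2), whose counts were summed, so that 13 libraries gave 12 samples. There was no group of control MEFs with Fucoidan-FV, so the treatment was measured in SnCs alone.

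cGAS, the product of Cgas, binds double-stranded DNA in the cytosol and makes the second messenger cGAMP, which binds STING (Sting1). STING recruits the kinase TBK1, which phosphorylates the transcription factor IRF3, and IRF3 drives type I interferon. MAVS is the mitochondrial adaptor that joins the cytosolic RNA sensors to the same kinase. TREX1 degrades DNA in the cytosol, SAMHD1 breaks down deoxynucleotides and helps to process stalled replication forks, and RNase H2, a complex of the catalytic subunit RNASEH2A with RNASEH2B and RNASEH2C, removes ribonucleotides from DNA and resolves RNA:DNA hybrids. Loss of the clearance enzymes causes the interferon disease Aicardi-Goutières syndrome, and cGAS-STING signalling on chromatin fragments in the cytosol is known to drive part of the senescence-associated secretory phenotype (SASP) in fibroblasts.

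The libraries held between 22782536 and 31278750 expected counts. Fibroblast markers (10 of 10 tested) summed to 31934 to 53849 CPM (counts scaled to the size of the library) in every sample. Fn1 made up most of this sum (18163 to 42455 CPM), while Dcn ran from 0.726 to 168 CPM and Pdgfra from 2.07 to 25.9 CPM. Of the 10, edgeR called 1 higher and 1 lower in SnCs against control MEFs. Against SnCs it called 2 higher and 1 lower at 100 µg/mL, and 1 higher and 0 lower at 300 µg/mL. The summed macrophage markers reached 3.48 to 18.5 CPM in SnCs 3.57 to 5.44 CPM in control MEFs and 5.31 to 16.3 CPM with Fucoidan-FV (8 of 10 tested), and the endothelial markers 5.23 to 11.7 CPM in the Fucoidan-FV groups against 1.32 to 3.3 CPM in the groups without it, with Cldn5 at 0 in every sample. Of these endothelial markers, Tek had 0.481 ± 0.351 CPM in SnCs, 5.87 ± 1.81 CPM at 100 µg/mL and 4.92 ± 1.11 CPM at 300 µg/mL (edgeR adjusted p of 0.0446 and 0.0818), and the group means of Pecam1, Kdr and Emcn were below 1 CPM. Epithelial markers did not pass 2.04 CPM, and of the skeletal muscle markers, whose sum ran from 67.8 to 359 CPM, Acta1 and Des made up nearly all counts while Myf5 was at 0 and Myod1 and Myog did not pass 1 count. The part of these markers in the results below was not tested. In bulk RNA, fewer cells of a type and less RNA per cell cannot be told apart. The share of reads on genes that hold nearly only sequence unique to 1 transcript varied between libraries. For the 1408 genes with over 95% of such exonic bases, libraries deviated from their mean by medians of −1.41 (control mouse 6) to 1.08 (100 µg/mL, mouse 5) on the log2 scale, and libraries 5(1) and 5(2) of 1 mouse by −1.16 and 0.80.

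The members lie on 8 chromosomes of GRCm39 and are all protein-coding. Cgas (9:78337802-78350535, minus strand) shares 38.9% of its exonic bases with Gm8093 on the opposite strand, which had a total of 4 counts. Trex1 (9:108887001-108888802, minus strand) lies whole within exons of Atrip on the same strand, so its counts depend on how reads were divided between both genes and are uncertain. Rnaseh2a (8:85683232-85696408, minus strand) shares 19.3% of its exonic bases with Prdx2 on the opposite strand, and Rnaseh2c (19:5651868-5657526, plus strand) shares 33.1% with Kat5. Atrip, Prdx2, Kat5 and Bcl2l12, the opposite-strand neighbour of Irf3, did not pass the test in any of the 3 main comparisons. Prdx2 had a log2 fold change of 0.37 in SnCs against control MEFs. Against SnCs it was −0.72 at 100 µg/mL (edgeR adjusted p = 0.083, lower in 3 of 3 mice) and −0.54 at 300 µg/mL (adjusted p = 0.245). Its part in the counts of Rnaseh2a was not tested. Single-transcript sequence makes up 88.3% of Rnaseh2b (14:62530038-62630559, plus strand) and 76.1% of Samhd1 (2:156939453-156977187, minus strand), and at most 29.0% of the other members. Rnaseh2b received 177 counts in library 5(1) and 375 in library 5(2) of control mouse 5.

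Promoters of the members that were lower than control MEFs at both doses, described further on, are shown because these genes were lower together. The 250 bases before the start site were taken from RefSeq (GRCm38.p6, a different build from that of the gene positions above), 5′ to 3′ on the strand of the gene, with matches to the GC box GGGCGG and to CCAAT (both strands) in capitals. RefSeq promoters were given for 8 of the 10 members, and none for Rnaseh2b or Sting1.
Cgas: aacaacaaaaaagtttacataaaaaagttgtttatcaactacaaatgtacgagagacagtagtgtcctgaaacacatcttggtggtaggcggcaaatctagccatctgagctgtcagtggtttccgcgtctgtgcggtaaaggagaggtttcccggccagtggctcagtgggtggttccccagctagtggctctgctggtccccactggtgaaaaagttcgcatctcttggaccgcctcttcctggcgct
Samhd1: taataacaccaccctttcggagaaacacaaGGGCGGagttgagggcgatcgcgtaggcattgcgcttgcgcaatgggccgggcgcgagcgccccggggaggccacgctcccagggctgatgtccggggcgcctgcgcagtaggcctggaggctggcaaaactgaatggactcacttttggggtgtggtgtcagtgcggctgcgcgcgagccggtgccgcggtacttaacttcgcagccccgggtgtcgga
Rnaseh2a: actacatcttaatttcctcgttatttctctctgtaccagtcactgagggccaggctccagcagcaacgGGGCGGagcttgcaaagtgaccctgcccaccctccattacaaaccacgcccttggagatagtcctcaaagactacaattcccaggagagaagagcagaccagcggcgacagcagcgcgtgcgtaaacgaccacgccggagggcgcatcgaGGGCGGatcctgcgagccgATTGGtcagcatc
They lie at chr9:78443238-78443487, chr2:157135097-157135346 and chr8:84966077-84966326, all on the minus strand. Rnaseh2a held 2 GC boxes and 1 CCAAT box, Samhd1 held 1 GC box, and Cgas held neither. Over 300 bases from 250 before to 50 after the start, none of the 9 promoters of these 8 members contained the E2F motifs TTTCCCGC, TTTGGCGC or TTTCGCGC, which 1.85% of 32851 promoters contained, or the interferon response core GAAANNGAA, which 8.56% contained. The GC box was present in 6 of the 9 (66.7%, against 35.7% of all promoters) and CCAAT in 2 of the 9 (22.2%, against 37.4%). The motifs do not overlap each other in the printed sequences, and the GC box and CCAAT were added to the search after the first motifs gave no match.

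In SnCs against control MEFs, 1 of the 10 members fell (edgeR's quasi-likelihood test, p adjusted over the 15034 genes, threshold 0.05), where 5.63% of all genes did, and 0 rose, where 6.11% of all genes did. That member was Samhd1. Cgas had the largest fold difference, 3.23-fold lower, but its adjusted p was 0.0552. With 100 µg/mL Fucoidan-FV against SnCs, 1 member fell, Rnaseh2a (2.89% of all genes fell and 1.14% rose). It was also a differentially expressed gene (DEG) by the study's thresholds, which add to that p a log2 fold change beyond 1 in size, as were 1.60% of all genes in this direction. With 300 µg/mL against SnCs, 0 members passed the test (1.12% of all genes fell and 0.778% rose), 3 were lower at an unadjusted p under 0.05 (8.97% of all genes), and DESeq2 called 1 lower, Rnaseh2c (3.52% of all genes).

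**Figure D1:**
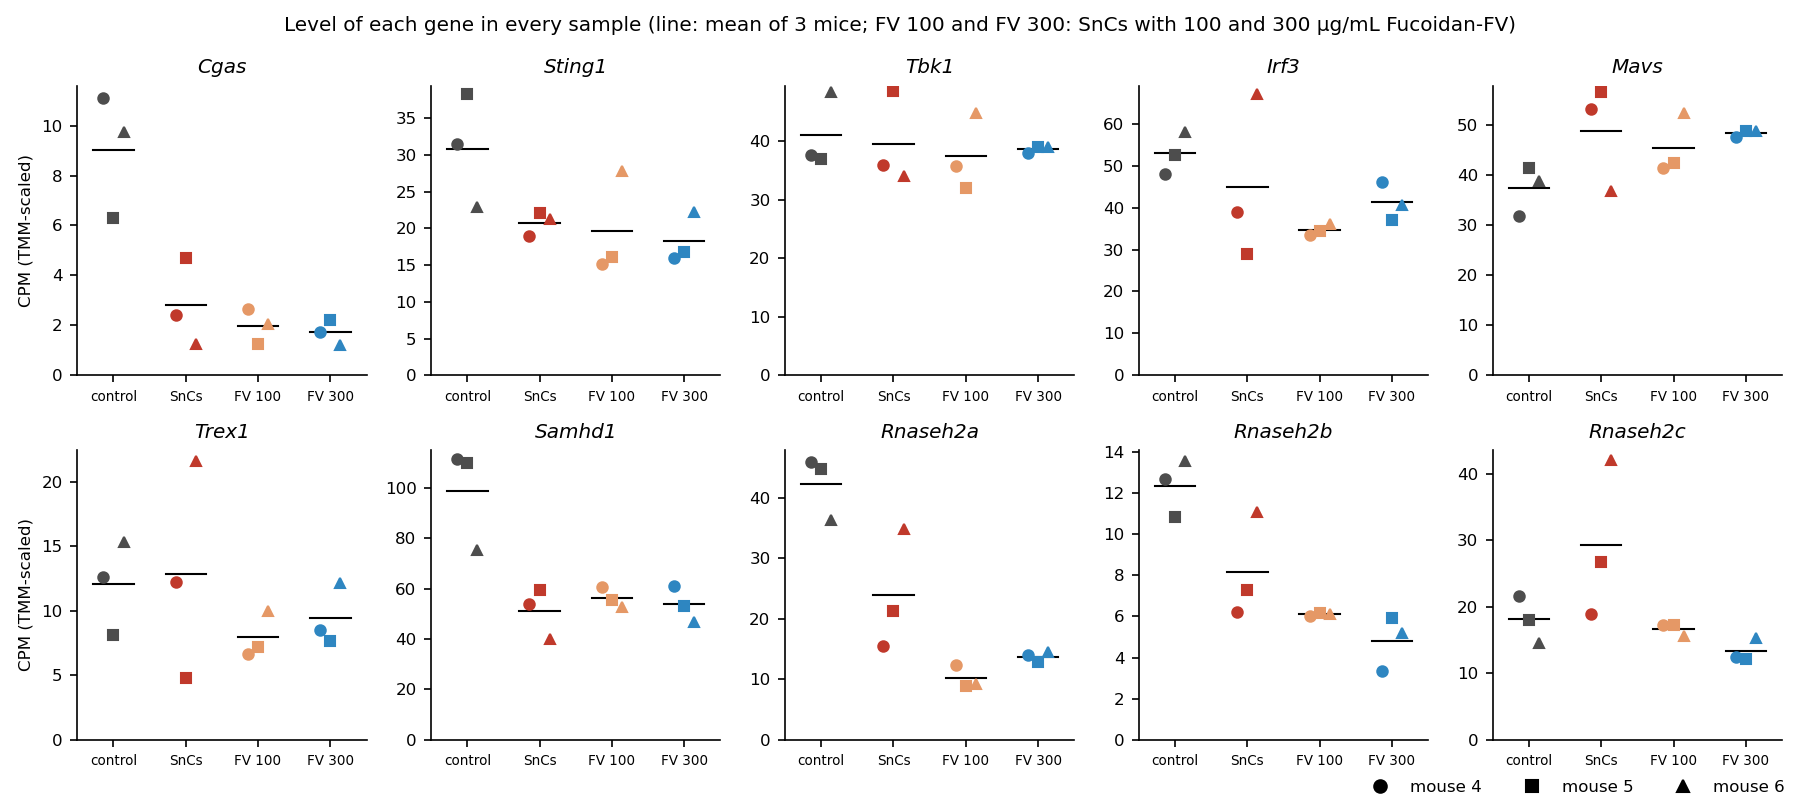
Level (CPM, y axis from 0) of the 10 genes in control MEFs, SnCs and SnCs with 100 or 300 µg/mL Fucoidan-FV (x axis), 1 point per mouse (circle 4, square 5, triangle 6), with the line at the mean. Cgas, Samhd1 and Rnaseh2a of every SnC sample lie below every control sample, and the triangle of SnC mouse 6 stands above the other SnC points for Irf3, Trex1, Rnaseh2a, Rnaseh2b and Rnaseh2c.

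Against control MEFs, 4 of the 10 members were lower at 100 µg/mL (14.4% of all genes fell and 12.2% rose) and 4 at 300 µg/mL (12% fell and 12.4% rose), in both cases Cgas, Samhd1, Rnaseh2a and Rnaseh2b. All but Samhd1 were DEGs at each dose, 3 of 10 members where 9.37% of all genes at 100 µg/mL and 8.11% at 300 µg/mL were DEGs with lower levels. These comparisons share the control samples with each other and with that of SnCs against control MEFs. No member rose, although Rnaseh2c was higher in SnCs than in control MEFs at an unadjusted p of 0.0335, and DESeq2 called no member higher in any comparison. Between 300 µg/mL and 100 µg/mL, 0 members passed edgeR's test or DESeq2's, and 0 had an unadjusted p under 0.05, with 0% of all genes called higher and 0.00665% lower at 300 µg/mL. By the sign of the log2 fold change, 5 members were higher and 5 lower at 300 µg/mL. Rnaseh2a, Irf3 and Trex1 were higher in 3 of 3 mice, with 0.43 (95% interval −0.19 to 1.06), 0.25 (−0.32 to 0.82) and 0.25 (−0.74 to 1.24). Rnaseh2b and Rnaseh2c were lower in 3 of 3 mice, with −0.34 (−1.05 to 0.37) and −0.33 (−0.96 to 0.30). The median log2 fold change of the members was −0.40 in SnCs against control MEFs, −0.40 at 100 µg/mL and −0.31 at 300 µg/mL against SnCs, and −0.63 and −0.60 at these doses against control MEFs, with medians over all tested genes of 0.072, −0.019, 0.0003, 0.087 and 0.065.

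**Figure D2:**
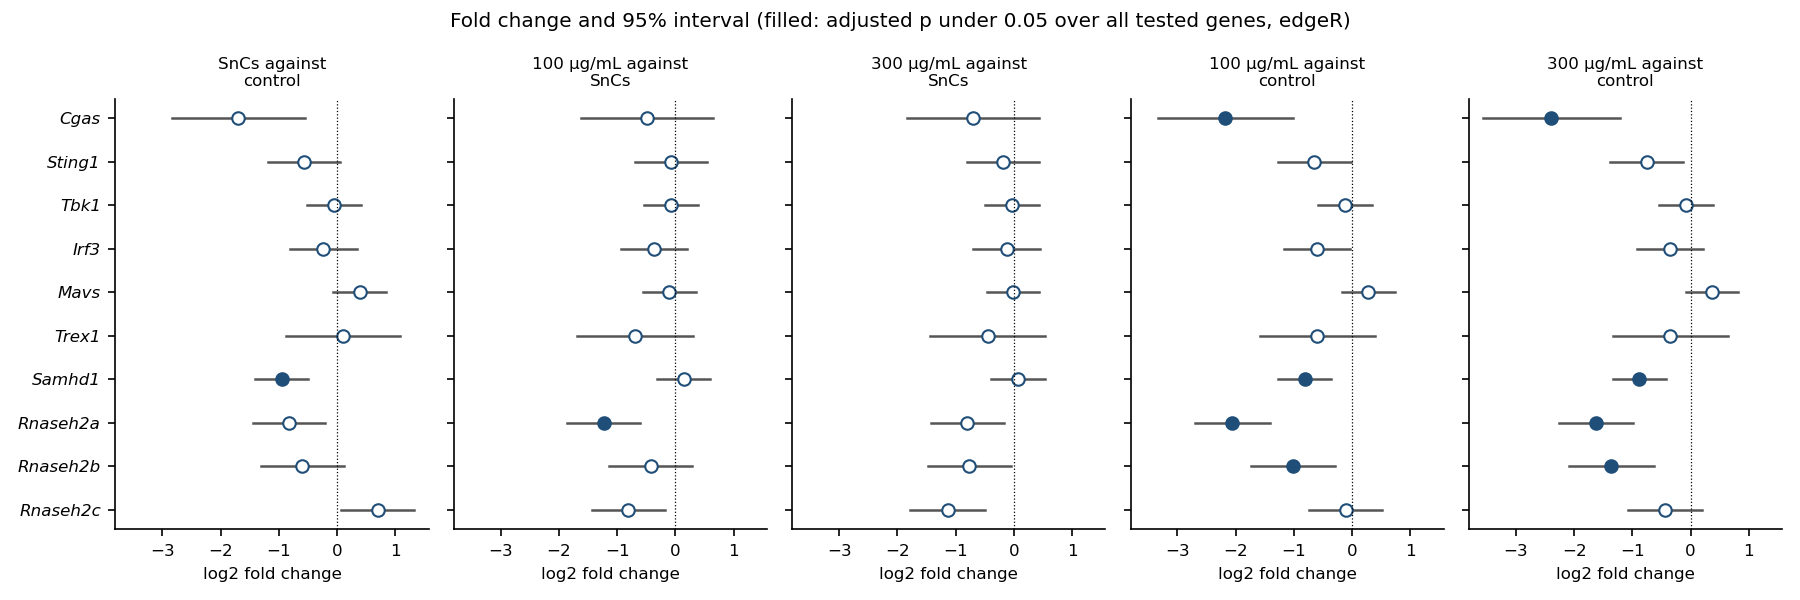
Log2 fold change (x axis) of each gene (y axis) in 5 comparisons, 1 panel each, with the 95% interval of edgeR's fit as a line. Filled points passed an adjusted p of 0.05 over 15034 genes, which holds for Samhd1 in SnCs, for Rnaseh2a at 100 µg/mL against SnCs, and for Cgas, Samhd1, Rnaseh2a and Rnaseh2b at both doses against control MEFs.

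The sensor and its adaptor were examined first. Cgas was measured at 11.1, 6.28 and 9.73 CPM in control mice 4, 5 and 6, at 2.43, 4.70 and 1.26 CPM in SnCs, at 2.66, 1.25 and 2.04 CPM with 100 µg/mL, and at 1.74, 2.21 and 1.2 CPM with 300 µg/mL Fucoidan-FV. Every sample of SnCs and of both treated groups lay below the lowest control. The mean was 9.03 ± 2.48 CPM (SD, n = 3) in control MEFs and 2.79 ± 1.75 CPM in SnCs, a log2 fold change of −1.69 (SE 0.53) with an adjusted p of 0.0552 in edgeR, lower in 3 of 3 mice. Over 19 alternatives Cgas was called lower in 5, among them DESeq2 and the fit without SnC mouse 5 (−2.27, adjusted p = 0.0275 in edgeR), with adjusted p from 0.009 to 0.157 over all of them. Against control MEFs Cgas fell 4.53-fold at 100 µg/mL (log2 fold change −2.18, SE 0.54, edgeR adjusted p = 0.00919) and 5.24-fold at 300 µg/mL (−2.39, SE 0.54, edgeR adjusted p = 0.00615), and these calls held in all 19 alternatives. Against SnCs the differences were −0.49 (95% interval −1.61 to 0.64) and −0.70 (−1.83 to 0.44), within the spread of the SnC samples. Counts of Cgas ran from 29 to 261 per library.

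Sting1, the cGAMP receptor of the endoplasmic reticulum, was measured at 31.5, 38.2 and 22.9 CPM in control MEFs, at 19.0, 22.1 and 21.2 CPM in SnCs, at 15.2, 16.1 and 27.8 CPM with 100 µg/mL and at 15.9, 16.8 and 22.2 CPM with 300 µg/mL. The SnC and 300 µg/mL samples all lay below the lowest control, by a small margin, while mouse 6 at 100 µg/mL lay above it. The log2 fold change was −0.57 (SE 0.29) in SnCs, with an edgeR adjusted p of 0.236. It was −0.65 at 100 µg/mL and −0.76 at 300 µg/mL against control MEFs, with edgeR adjusted p of 0.113 and 0.0731. Offsets for single-transcript sequence, length and GC content turned all 3 into calls (−0.78, −0.79 and −0.93, with adjusted p of 0.0263, 0.0137 and 0.00597). Against SnCs the differences of Sting1 were −0.08 (95% interval −0.69 to 0.54) at 100 µg/mL and −0.18 (−0.80 to 0.44) at 300 µg/mL.

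The kinase, the transcription factor and the RNA-sensing adaptor did not pass the test in any of the 6 comparisons. Tbk1 ranged from 32 to 48.6 CPM over all 12 samples, its group means lay between 37.5 and 41.0 CPM, and its 95% interval in SnCs against control MEFs was −0.52 to 0.41 on the log2 scale. Irf3 was measured at 48.1, 52.6 and 58.2 CPM in control MEFs, at 38.9, 28.9 and 67.1 CPM in SnCs, at 33.6, 34.5 and 36.2 CPM with 100 µg/mL and at 46.0, 37.1 and 40.6 CPM with 300 µg/mL. The 3 treated samples at each dose lay below the lowest control, whereas SnC mouse 6 was the highest of all samples. At 100 µg/mL against control MEFs the log2 fold change of Irf3 was −0.61 (edgeR adjusted p = 0.107). It was called lower in 3 of 19 alternatives there, and in 0 of 19 at 300 µg/mL. Mavs was the only member whose mean CPM was higher in all 3 senescent groups than in control MEFs, which was not so per length. It was measured at 31.9, 41.5 and 38.9 CPM in control MEFs, at 53.1, 56.6 and 36.9 CPM in SnCs, at 41.5, 42.4 and 52.4 CPM with 100 µg/mL and at 47.6, 48.8 and 48.8 CPM with 300 µg/mL. Per length, Tbk1 and Rnaseh2c also had higher means in all 3 senescent groups. In SnCs, mice 4 and 5 were above all controls and mouse 6 was not. Without SnC mouse 6, Mavs was called higher in SnCs (log2 fold change 0.56, edgeR adjusted p = 0.0269) and Irf3 lower (−0.63, adjusted p = 0.0350), and both calls were absent from the other 18 alternatives.

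Every SnC sample lay below every control sample for 4 members, Cgas, Sting1, Samhd1 and Rnaseh2a, which was so for 12.9% of all tested genes. In the treated groups against control MEFs this held for 5 members at 100 µg/mL (24.1% of all genes) and 6 at 300 µg/mL (21.1%). Irf3 belonged to them at both doses and Sting1 at 300 µg/mL. In the other direction, every treated sample lay above every control sample for 1 member, Mavs, at both doses. At 100 µg/mL this was by a small margin. The share of all genes in that direction is not given here.

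Of the clearance enzymes, Samhd1 was the one that passed the test between SnCs and control MEFs. It was measured at 111, 110 and 75.3 CPM in control mice 4, 5 and 6, at 53.7, 59.5 and 40.2 CPM in SnCs, at 60.5, 55.5 and 52.8 CPM with 100 µg/mL and at 61.2, 53.1 and 46.8 CPM with 300 µg/mL. No senescent sample, treated or not, reached the lowest control, and mouse 6 was the lowest of its group in all 4 groups. In SnCs Samhd1 fell 1.93-fold, from 98.8 ± 20.4 to 51.1 ± 9.92 CPM (log2 fold change −0.95, SE 0.21, edgeR adjusted p = 0.0112, lower in 3 of 3 mice). It fell 1.76-fold at 100 µg/mL and 1.84-fold at 300 µg/mL against control MEFs (edgeR adjusted p of 0.0126 and 0.00867), and lost these calls without control mouse 4 (adjusted p of 0.114 and 0.0506) or without control mouse 5 (0.12 and 0.0514). At 300 µg/mL the call was lost in 4 of 19 alternatives, these among them, with adjusted p up to 0.0860 over all alternatives. Against SnCs the differences were 0.14 (95% interval −0.32 to 0.59) at 100 µg/mL and 0.07 (−0.38 to 0.53) at 300 µg/mL. These small differences turned to −0.31 and −0.10 with the sequence offsets. The call in SnCs held in 17 of 19 alternatives, and was lost when only these 2 groups entered the fit (adjusted p = 0.0687) and with RSEM's effective lengths as offsets together with the replicate block (adjusted p = 0.0646).

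Trex1, the exonuclease of cytosolic DNA, was measured at 12.6, 8.13 and 15.3 CPM in control MEFs, at 12.2, 4.74 and 21.6 CPM in SnCs, at 6.64, 7.19 and 9.97 CPM with 100 µg/mL and at 8.53, 7.65 and 12.2 CPM with 300 µg/mL. The SnC samples ran from the lowest to the highest value of all 12, and no comparison passed the test. Its 95% intervals of −0.88 to 1.08 in SnCs and −1.69 to 0.29 at 100 µg/mL against SnCs were wider than those of every other member but Cgas, and its shared position with Atrip adds an uncertainty that these intervals do not cover.

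Of the RNase H2 subunits, 1 passed the test against SnCs, at 100 µg/mL, and 2 passed it against control MEFs at both doses. Rnaseh2a, the catalytic subunit, was measured at 46.0, 44.8 and 36.3 CPM in control mice 4, 5 and 6, at 15.5, 21.3 and 34.8 CPM in SnCs, at 12.4, 8.90 and 9.20 CPM with 100 µg/mL and at 13.9, 12.8 and 14.5 CPM with 300 µg/mL. SnC mouse 6 stood near the controls while mice 4 and 5 were well below them, and every treated sample was below every SnC sample. In SnCs the log2 fold change was −0.83 (SE 0.29) with an edgeR adjusted p of 0.0839, and without SnC mouse 6 it was −1.2 with an adjusted p of 0.00660. At 100 µg/mL Rnaseh2a fell 2.35-fold against SnCs, from 23.9 ± 9.91 to 10.2 ± 1.94 CPM (−1.23, SE 0.29, edgeR adjusted p = 0.0373, lower in 3 of 3 mice). The call was lost in 11 of 19 alternatives. The difference was −0.69 with an edgeR adjusted p of 0.178 without SnC mouse 6, and the adjusted p was 0.0898 without SnC mouse 5 and 0.0801, 0.164 and 0.0983 without treated mouse 4, 5 or 6. With the replicate block, which pairs samples of 1 mouse, the difference was −1.21 with an adjusted p of 0.0652. At 300 µg/mL the difference from SnCs was −0.80 (95% interval −1.42 to −0.17) with an adjusted p of 0.192. Against control MEFs Rnaseh2a fell 4.16-fold at 100 µg/mL (−2.06, SE 0.30, edgeR adjusted p = 0.000292) and 3.08-fold at 300 µg/mL (−1.62, SE 0.29, adjusted p = 0.00146), and both calls held in all 19 alternatives.

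Rnaseh2b, the subunit that binds the clamp protein PCNA, was measured at 12.7, 10.8 and 13.6 CPM in control MEFs, at 6.20, 7.29 and 11.1 CPM in SnCs, at 6.01, 6.17 and 6.12 CPM with 100 µg/mL and at 3.33, 5.94 and 5.18 CPM with 300 µg/mL. The treated samples lay below all SnC samples, though at 100 µg/mL by only a small margin from the lowest of them. Against control MEFs it fell 2.03-fold at 100 µg/mL (edgeR adjusted p = 0.0366) and 2.56-fold at 300 µg/mL (adjusted p = 0.00983). The first of these calls was lost in 10 of 19 alternatives, among them library 5(1) alone for control mouse 5 (log2 fold change −0.83, adjusted p = 0.129) and each of the 6 fits without 1 control or treated mouse (adjusted p from 0.0794 to 0.144), and the second in 2, both with effective lengths as offsets. In SnCs against control MEFs the difference was −0.59 (95% interval −1.31 to 0.12).

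Rnaseh2c, the third subunit, had a higher mean in SnCs than in control MEFs, where the other two had a lower one, and did not pass the test. It was measured at 21.6, 18.0 and 14.6 CPM in control MEFs, at 18.9, 26.8 and 42.0 CPM in SnCs, at 17.3, 17.3 and 15.5 CPM with 100 µg/mL and at 12.4, 12.1 and 15.3 CPM with 300 µg/mL. SnC mice 5 and 6 were above all controls and all treated samples were below all SnC samples. The log2 fold change was 0.69 (SE 0.29, edgeR adjusted p = 0.155) in SnCs, −0.81 (SE 0.29, adjusted p = 0.142) at 100 µg/mL and −1.14 (SE 0.30, adjusted p = 0.0716) at 300 µg/mL against SnCs. In CPM, all 3 RNase H2 subunits, and no other member, had every treated sample below every SnC sample at 100 µg/mL (15% of all tested genes) and at 300 µg/mL (10.2%). The median log2 fold change of the 5 clearance members against SnCs was −0.70 at 100 µg/mL and −0.76 at 300 µg/mL, and that of the 5 sensing members was −0.11 and −0.13. Each median of 5 is the value of 1 gene. For the clearance members it was Trex1, with its uncertain counts, at 100 µg/mL and Rnaseh2b at 300 µg/mL. Samhd1 was above 0 at both doses (0.14 and 0.07).

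The mean effective length that RSEM gave Rnaseh2c was 573 bases in control MEFs and 572 bases in SnCs, and 436 and 425 bases at 100 and 300 µg/mL, so that at the doses its level per length did not follow its count. Rnaseh2a and Rnaseh2b, with 850 and 516 bases in SnCs, were longer at 100 µg/mL, to 657 bases for Rnaseh2b, and shorter at 300 µg/mL (696 and 380 bases). In TPM, the unit for transcripts that divides by that length, Rnaseh2c was 62.7 ± 18.0 in SnCs, 68.3 ± 11.5 at 100 µg/mL and 54.2 ± 23.1 at 300 µg/mL (SD, n = 3). With the effective lengths as offsets in the edgeR fit, its difference from SnCs was −0.33 (adjusted p = 0.735) at 100 µg/mL and −0.57 (adjusted p = 0.573) at 300 µg/mL. Under the same offsets Rnaseh2a at 100 µg/mL against SnCs was −1.28 with an adjusted p of 0.0603, and at 300 µg/mL against SnCs −0.38 with an adjusted p of 0.679.

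**Figure D3:**
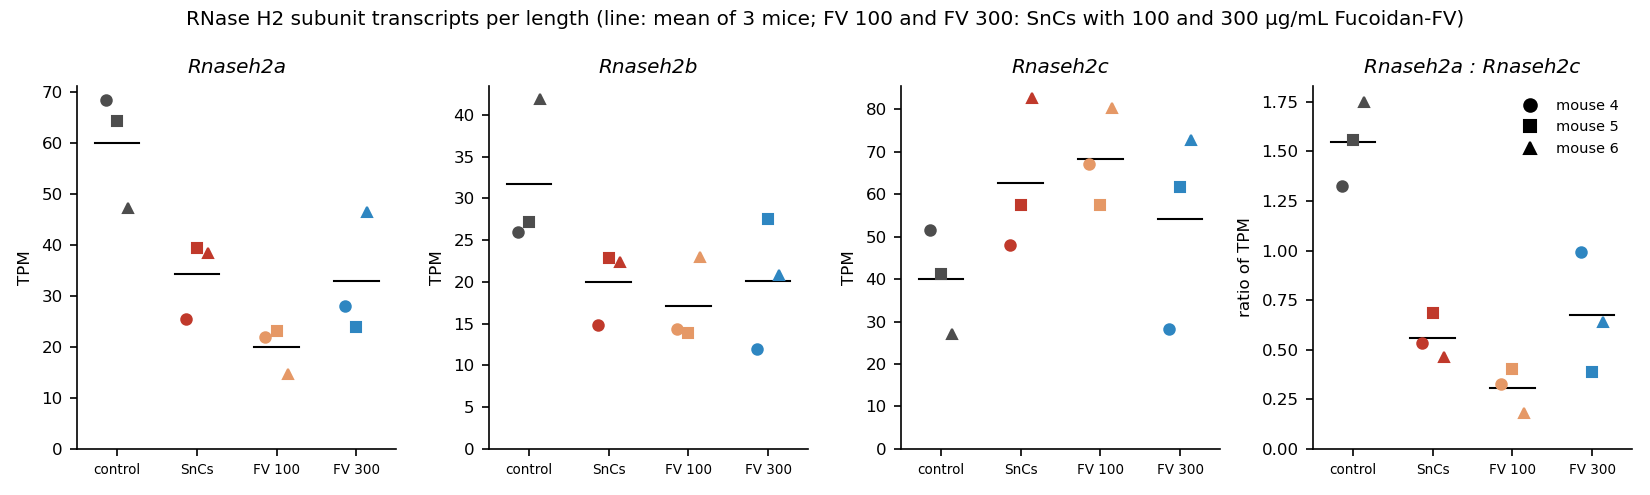
Level per length (TPM, y axis from 0) of the 3 RNase H2 subunits in the 4 groups, and in the right panel the ratio of Rnaseh2a to Rnaseh2c TPM, 1 point per mouse with the line at the mean. The ratio runs from 1.33 to 1.75 in control samples and from 0.182 to 0.993 in the senescent samples.

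Per length, control MEFs held more Rnaseh2a than Rnaseh2c and senescent MEFs held less. The ratio of Rnaseh2a to Rnaseh2c TPM was 1.33, 1.56 and 1.75 in control mice 4, 5 and 6, 0.532, 0.687 and 0.465 in SnCs, 0.327, 0.404 and 0.182 with 100 µg/mL, and 0.993, 0.388 and 0.640 with 300 µg/mL. The ratios of control MEFs did not overlap those of any senescent group, those at 100 µg/mL lay below those of SnCs, and those at 300 µg/mL overlapped with both other senescent groups. The ratio was not tested.

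Levels of different genes were compared in TPM. In control MEFs the order from high to low was Samhd1 (65.5 ± 5.21 TPM, SD, n = 3), Rnaseh2a (60.1 ± 11.2), Irf3 (50.9 ± 2.64), Rnaseh2c (40.0 ± 12.3), Rnaseh2b (31.7 ± 8.92), Sting1 (29.0 ± 1.84), Tbk1 (22.6 ± 7.36), Trex1 (18.8 ± 5.58), Mavs (17.3 ± 1.92) and Cgas (3.5 ± 0.88). Only Mavs and Cgas, as neighbours in this order, differed by more than the sum of their SDs. In SnCs Rnaseh2c stood first (62.7 ± 18.0 TPM), followed by Irf3 (45.6 ± 14.5), Samhd1 (40.6 ± 11.8) and Rnaseh2a (34.4 ± 7.73), and Cgas stood last again (1.14 ± 0.73). At 100 µg/mL Rnaseh2c led (68.3 ± 11.5 TPM) and Rnaseh2a was in the seventh place (19.9 ± 4.64), and at 300 µg/mL Samhd1 (54.8 ± 7.84) and Rnaseh2c (54.2 ± 23.1) stood side by side. Cgas was the lowest member in all 4 groups and differed from its neighbour by more than the sum of their SDs in each, with 1.18 ± 0.41 TPM at 100 µg/mL and 0.88 ± 0.31 TPM at 300 µg/mL. FPKM gave the same order in 3 of the 4 groups.

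SnC mouse 6 decided several of these values. It held the highest Irf3, Trex1, Rnaseh2a, Rnaseh2b and Rnaseh2c and the lowest Cgas, Samhd1, Tbk1 and Mavs of the SnC samples. Without it, 4 of the 10 members, against 1 with it, passed edgeR's test in SnCs against control MEFs, with Samhd1, Rnaseh2a and Irf3 lower and Mavs higher. In the same fit 8.14% of all genes fell and 9.19% rose. An offset was fitted to each sample from single-transcript sequence, length and GC content. That of SnC mouse 6 was the largest of the 12 samples for Rnaseh2c (0.73 on the log2 scale), Trex1 (0.67), Irf3 (0.40), Sting1 (0.27) and Rnaseh2a (0.24). It was below 0 for Samhd1 (−0.44), Mavs (−0.21), Rnaseh2b (−0.17), Cgas (−0.16) and Tbk1 (−0.06). Rnaseh2b of mouse 6 deviated against the sign of its offset, and Sting1 of mouse 6 lay between the other SnC samples. For the rest the signs were the same. The offsets were fitted to the counts of these same samples, so such a match is partly built in, and its cause was not tested. With these offsets, 4 members were lower in SnCs (Cgas, Sting1, Samhd1 and Rnaseh2a), where 12.3% of all genes were, and 1 member, Rnaseh2a, fell at 100 µg/mL (log2 fold change −1.13, adjusted p = 0.0158), where 5.71% of all genes did.

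**Figure D4:**
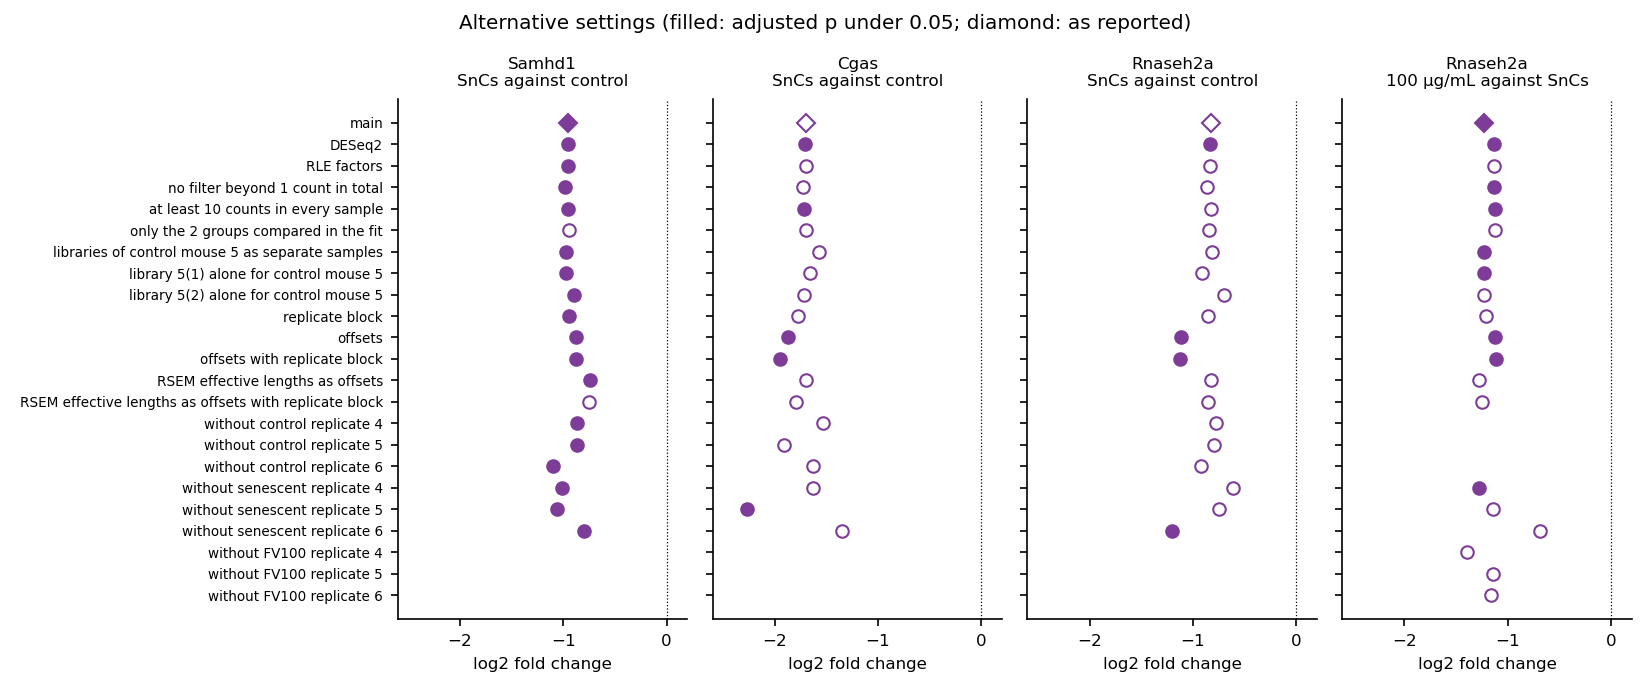
Log2 fold change (x axis) of Samhd1, Cgas and Rnaseh2a in SnCs against control MEFs and of Rnaseh2a at 100 µg/mL against SnCs, under the reported setting (diamond) and each alternative (y axis). Filled points have an adjusted p under 0.05: 17 of 19 alternatives for Samhd1, 5 for Cgas, and 4 and 8 for Rnaseh2a in its 2 panels, and no value crosses 0.

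The other genes of the pathway were followed in 6 lists with 119 genes, of which 105 were tested. In SnCs against control MEFs 7 of them rose and 11 fell, beside 6.11% and 5.63% of all genes, so that the count of rises lay near the share over all genes. Among 16 tested genes on the list of nucleic acid sensors and their helpers, 1 rose, with a median log2 fold change of 0.61 over the 16 genes. It was Unc93b1, the chaperone that carries endosomal Toll-like receptors (10.1 ± 1.76 to 24 ± 3.78 CPM, edgeR adjusted p = 0.00884). Among 18 signalling partners 2 rose, Irf7, the interferon-inducible relative of IRF3 (1.03 ± 0.16 to 4.72 ± 1.21 CPM, adjusted p = 0.0220), and Ikbke, the kinase related to TBK1 (8.33 ± 1.41 to 16.5 ± 3.58 CPM, adjusted p = 0.0432), which were called in 12 and 11 of 19 alternatives. Of 16 tested interferon response genes 2 rose from levels below 1 CPM, Xaf1 (0.32 ± 0.33 to 4.01 ± 0.94 CPM) and Ifit3 (0.12 ± 0.051 to 1.39 ± 0.52 CPM), with edgeR adjusted p of 0.0226 and 0.0153, and they were called in 12 and 15 of 18 alternatives. The median of the tested genes on this list was 1.27, and 14 of the 16 had a log2 fold change above 0. The list held 26 genes, and the others had too few counts to be tested, with 0 counts of Ifnb1 and Ifna4 in every sample. Genes such as Xaf1, Ifit3, Oasl1 and Usp18 (0.32, 0.12, 0.013 and 0.083 CPM in control MEFs) passed the count filter only through senescent samples. So did Zbp1 and Tlr7 among the sensors. Both medians, and the count above 0, therefore lean upward by selection. The same selection bears on the calls of Xaf1 and Ifit3, which are among the 7 rises. The summed macrophage markers also reached 18.5 CPM in SnCs, against at most 5.44 CPM in control MEFs, and their part in these values was not tested.

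Among the genes that supply deoxynucleotides, the substrate of SAMHD1, 7 of 17 tested fell and 1 rose, with a median log2 fold change of −0.99. Tk1, thymidine kinase, fell from 48.3 ± 22 to 3.76 ± 2.25 CPM (12.8-fold, edgeR adjusted p = 0.000590), and Rrm2, the small subunit of ribonucleotide reductase, from 124 ± 46.2 to 22.5 ± 5.67 CPM (5.50-fold, adjusted p = 0.00181). Dck, deoxycytidine kinase, fell from 10.3 ± 7.38 to 2.09 ± 0.46 CPM (adjusted p = 0.0403), a call made in 9 of 19 alternatives, and Dguok, the mitochondrial deoxyguanosine kinase, rose from 9.97 ± 1.75 to 21.9 ± 5.70 CPM (adjusted p = 0.0162). On the list headed other nucleic acid clearance, which is wider than the clearance enzymes, 17 genes were tested and 3 fell. These were Lmnb1, which encodes lamin B1 of the nuclear envelope (29.2 ± 16.6 to 1.81 ± 0.59 CPM, edgeR adjusted p = 0.000408), and the DNA end processing genes Rbbp8 and Mre11a (log2 fold changes −1.13 and −1.13). Pld3, a lysosomal exonuclease, rose 2.02-fold (edgeR adjusted p = 0.00358). Of 21 genes that control STING or move and degrade cGAMP, 1 fell, the exporter Abcc1 (262 ± 18.7 to 131 ± 50.2 CPM, adjusted p = 0.0226), which was called in 13 of 19 alternatives.

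At 100 µg/mL against SnCs 4 of 105 pathway genes fell and 0 rose, beside 2.89% and 1.14% of all genes. Enpp1, the ectoenzyme that hydrolyses extracellular cGAMP, fell from 50.1 ± 6.39 to 16.7 ± 5.52 CPM at 100 µg/mL (3.01-fold, edgeR adjusted p = 0.0153) and to 17.3 ± 4.74 CPM at 300 µg/mL (2.90-fold, adjusted p = 0.0252), in 3 of 3 mice at each dose. Dctd, dCMP deaminase, fell from 21.5 ± 1.52 to 10.7 ± 2.77 CPM at 100 µg/mL and to 10.1 ± 1.73 CPM at 300 µg/mL (adjusted p of 0.0414 and 0.0397). Dut, the dUTPase, and Lrrfip1, a cytosolic nucleic acid sensor, fell at 100 µg/mL (log2 fold changes −1.27 and −0.79, adjusted p of 0.0449 and 0.0324). Enpp1 and Dctd were the 2 of 105 genes called at 300 µg/mL, where 0 rose and 1.12% of all genes fell. With the replicate block, 1 of 105 was called at each dose. The share of all genes called with the block is not given here, so a loss over all genes cannot be told apart. Of the 16 interferon response genes 0 passed edgeR's test at either dose, and their median log2 fold change against SnCs was −0.014 at 100 µg/mL and −0.12 at 300 µg/mL. Enpp1 was called in 16 of 19 alternatives at 100 µg/mL and in 10 at 300 µg/mL, and the adjusted p reached 0.0810 and 0.103 when single treated mice were left out. Dctd, Dut and Lrrfip1 were called in 7 to 9 of 19.

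**Figure D5:**
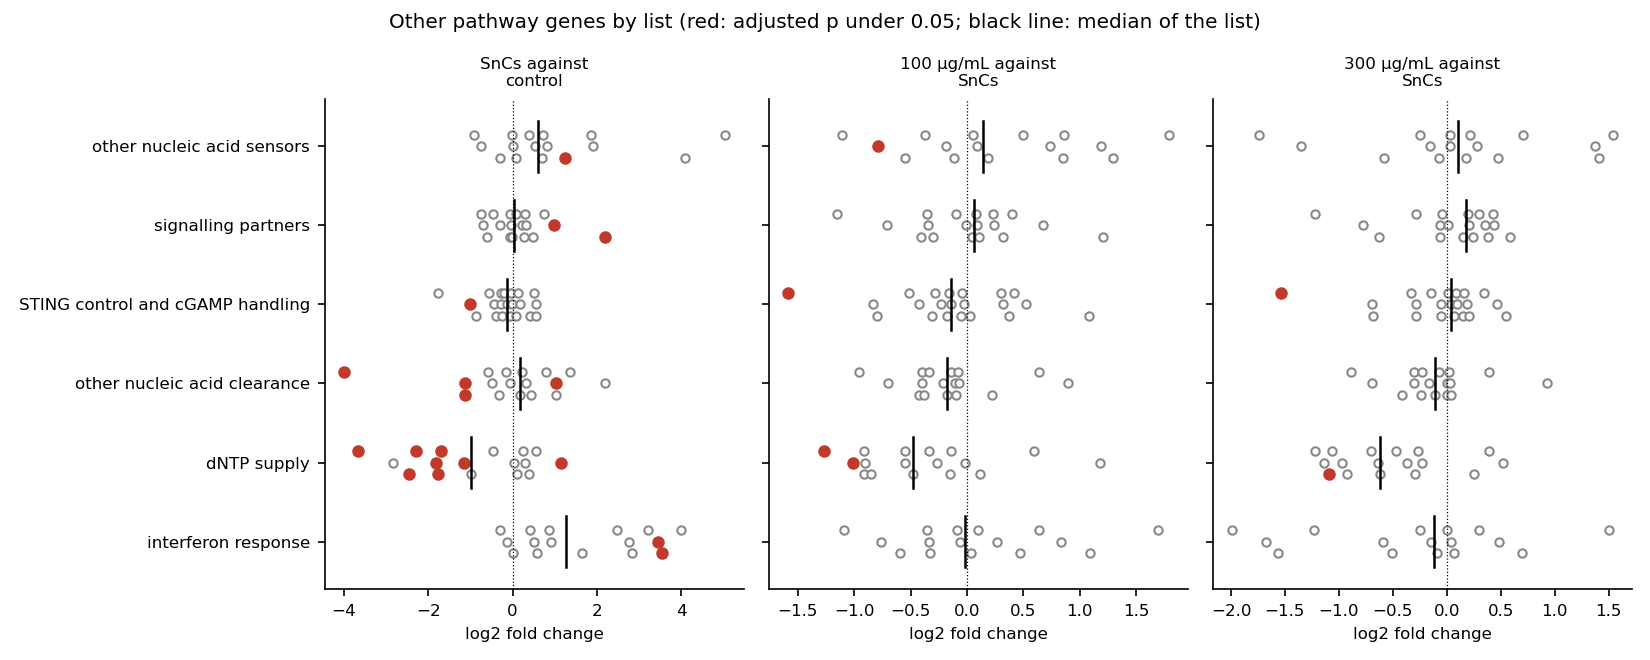
Log2 fold change (x axis, scaled per panel) of the tested genes of 6 pathway lists (y axis) in SnCs against control MEFs and at each dose against SnCs, 1 circle per gene, with red for an adjusted p under 0.05 and a black line at the median of the list. In SnCs 7 of the 8 red points among the deoxynucleotide supply genes lie below 0, and at the doses the 4 and 2 red points all lie below 0.

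The genes whose log2 CPM over the 12 samples was most like that of the members called in a main comparison were listed by Pearson's r, as a description. For Samhd1 they were Khsrp (0.97), an RNA-binding protein gene, and Sdad1 (0.96), and for Rnaseh2a they were Rrp9 (0.98), which encodes a U3 small nucleolar RNA-binding protein, and Srrt (0.98). By Spearman's rho the closest genes were Oxct1 and Adcyap1r1 for Samhd1 and Shmt2 and Rrp9 for Rnaseh2a, so that 1 of 4 genes was shared between the measures. All these points share the same 4 groups.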

How the data were processed

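RNA of 13 libraries was prepared with a stranded total RNA kit after Trizol extraction. Per the labels and the study's methods, the authors used FastQC 0.12.1, Trimmomatic, STAR 2.7.11b and RSEM 1.3.1 on GRCm39. The deposited files hold RSEM expected counts per gene, not normalized, with TPM, FPKM and effective lengths that the authors' RSEM run gave. The strand setting is not given in the sources used here.

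Expected counts were rounded, and the libraries of control mouse 5 were summed. R 4.3.3 was used with edgeR 4.0.16 (TMM factors, filterByExpr with a minimum count of 10 and a total of 15, quasi-likelihood test, 4 groups, Benjamini-Hochberg adjustment over 15034 genes). Intervals are 95% and two-sided. Of 57010 genes, 56310 matched the annotation (GENCODE, GRCm39). Printed CPM are relative to TMM-scaled library totals. The scripts were tested on simulated data.

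Samples with the same mouse number carry it in every group in the labels. Over 18 pairs the correlation of their deviations had a median of −0.0372 (range −0.329 to 0.601), and 8 were over 0.1. Members and lists were chosen with earlier results of these data known. Named pathway genes were those with an adjusted p under 0.05, at most 3 per list and direction by fold change, and a mean of 1 CPM or more in one of the groups compared. The 2 genes most like a called member were taken by Pearson's r. Alternatives were DESeq2 1.42.0, RLE factors, other count filters, 2-group fits, other uses of the libraries of control mouse 5, the replicate block, leaving out each mouse, and offsets for single-transcript sequence, length and GC content (mgcv 1.9.3). Effective lengths as offsets, and the GC and CCAAT boxes, were chosen after seeing the data.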

Additional observations from a re-analysis of the deposited data

How the results depend on the processing

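Of 1518 alternative values of 80 log2 fold changes of members and pathway genes, 1265 kept their direction and their side of the threshold, 132 lost the threshold, 32 newly passed it and 89, in 26 results, changed sign. None of the 89 was of a called result or became one. Xaf1 and Ifit3 had no value under the filter of at least 10 counts in every sample. Sequence offsets are those for single-transcript share, length and GC content, and length offsets are RSEM's effective lengths, chosen after seeing the data. The causes of these changes were not tested. Cgas had the fewest counts of the members, 29 to 261 per library.

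Members called in SnCs against control MEFs numbered 1, and 3 with DESeq2, 2 with at least 10 counts in every sample, 0 in the 2-group fit, 4 with sequence offsets (4 with the replicate block as well) and 0 with length offsets and the replicate block. The DEGs among them numbered 0, and 1 with DESeq2, 1 with at least 10 counts, 2 with sequence offsets and 2 with these and the block. Pathway genes called numbered 18, and 28 with DESeq2, 11 in the 2-group fit, and 29 and 30 with sequence offsets without and with the block. Leaving out each mouse gave 1 to 4 members, 0 to 2 DEGs and 11 to 28 pathway genes. With the replicate block alone there were 1 member, 0 DEGs and 16 pathway genes. The share of all genes called also moved with the setting. In the reported fit 5.63% of all genes fell and 6.11% rose. These shares were 12.3% and 7.81% with sequence offsets, and 8.14% and 9.19% without SnC mouse 6. Shares for the other settings are not given here, so these counts alone do not set the members or pathway genes apart from all genes.

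At 100 µg/mL against SnCs, the 1 member called and the 1 DEG became 0 and 0 with RLE factors, the 2-group fit, library 5(2) alone, the replicate block, and length offsets without and with the block. The 4 pathway genes became 7 with DESeq2, 1 with RLE factors, 7 with no filter, 1 in the 2-group fit, 0 with library 5(2) alone, 1 with the replicate block, 9 and 10 with sequence offsets without and with the block, and 1 with length offsets and the block. Without each mouse in turn there were 0 to 1 members, 0 to 1 DEGs and 0 to 3 pathway genes. Of all genes, 2.89% fell and 1.14% rose in the reported fit, and 5.71% and 2.09% with sequence offsets. Shares for the other settings are not given here. At 300 µg/mL against SnCs, the 0 members became 1 with DESeq2 and 1 with sequence offsets, and the 0 DEGs became 1 with DESeq2. Of all genes, 3.52% fell and 2.86% rose with DESeq2, against 1.12% and 0.778% in the reported fit. The 2 pathway genes became 7 with DESeq2, 7 with no filter, 0 in the 2-group fit, 1 with separate libraries of control mouse 5, 0 with library 5(2) alone, 1 with the replicate block, 7 and 6 with sequence offsets without and with the block, and 0 and 0 with length offsets. With 1 mouse left out there were 0 to 1 members, 0 to 1 DEGs and 0 to 1 pathway genes. At 100 µg/mL against control MEFs it gave 2 to 4 members. The replicate block left 4 and 4 members called against control MEFs and 0 between the doses. FPKM kept the order of levels in 3 of 4 groups.

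In SnCs against control MEFs, Tbk1 (−0.053) became 0.0074 with separate libraries of control mouse 5 and 0.0499 with library 5(2) alone. Trex1 (0.10) became −0.0302 with the replicate block, −0.47 and −0.48 with sequence offsets without and with the block, and −0.038 with length offsets and the block. With 1 mouse left out the ranges were −0.22 to 0.093 for Tbk1, −0.63 to 0.0047 for Irf3 and −0.48 to 0.49 for Trex1.

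At 100 µg/mL against SnCs, Sting1 (−0.076) became 0.0063 with DESeq2, 0.0061 with RLE factors, 0.015 with at least 10 counts in every sample and 0.0033 in the 2-group fit, and Tbk1 (−0.074) became 0.013, 0.012, 0.029 and 0.015 under the same settings and 0.0044 with no filter. Samhd1 (0.14) became −0.31 and −0.31 with sequence offsets and −0.20 and −0.19 with length offsets, without and with the block. Leaving out each mouse gave −0.76 to 0.24 for Cgas, −0.41 to 0.087 for Sting1, −0.22 to 0.23 for Tbk1, −0.46 to 0.18 for Irf3, −0.22 to 0.14 for Mavs, −0.96 to 0.016 for Trex1 and −0.43 to 0.0093 for Rnaseh2b.

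At 300 µg/mL against SnCs, Tbk1 (−0.033) became 0.13 and 0.11 with length offsets, Irf3 (−0.13) 0.0104 and 0.037 and Samhd1 (0.07) −0.10 and −0.11 with sequence offsets, without and with the block. Trex1 (−0.45) became 0.0044 with sequence offsets and the block. Mavs (−0.014) became 0.0042 with DESeq2, 0.0039 with RLE factors, 0.012 with no filter and 0.014 with at least 10 counts. Leaving out each mouse gave −0.077 to 0.19 for Tbk1, −0.32 to 0.32 for Irf3, −0.13 to 0.14 for Mavs, −0.79 to 0.18 for Trex1 and −0.035 to 0.23 for Samhd1.

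Between 300 and 100 µg/mL, values without and with the block are given in that order. Sting1 (−0.11) became 0.16 and 0.19 with length offsets. Tbk1 (0.041) became −0.026 with DESeq2, −0.026 with RLE factors, −0.011 with no filter, −0.032 with at least 10 counts, −0.023 in the 2-group fit, and −0.035 and −0.035 with sequence offsets. Mavs (0.091) became −0.008 and −0.0095 with sequence offsets. Samhd1 (−0.067) became 0.21 and 0.20 with sequence and 0.36 and 0.35 with length offsets, and Rnaseh2b (−0.34) 0.073 and 0.15, and 0.31 and 0.34. Without each mouse in turn the ranges were −0.45 to 0.063 for Cgas, −0.27 to 0.23 for Sting1, −0.061 to 0.19 for Tbk1 and −0.17 to 0.027 for Samhd1.

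Against control MEFs, Rnaseh2c at 100 µg/mL (−0.11) became 0.34 and 0.25 with length offsets without and with the block, and at 300 µg/mL (−0.44) 0.10 with length offsets. Tbk1 at 300 µg/mL (−0.087) became 0.017 with library 5(2) alone, and 0.075 and 0.084 with length offsets without and with the block. With 1 mouse left out the ranges were −0.28 to 0.16 for Tbk1 and −0.14 to 0.19 for Rnaseh2c at 100 µg/mL, and −0.11 to 0.12 for Tbk1 at 300 µg/mL.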
